A study of Rattus norvegicus with 108 samples.

Results

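Oligodend2 is one of the 12 cell types that the study's annotation of the dorsal dentate gyrus (dorDG) names, and one of its 2 oligodendrocyte types. Its members were all cells that carry this name in the deposited annotation, which is 95 of 1289 dorDG cells and of 3517 cells in both dentate gyrus regions. The study punched dorDG from fresh brains of male Long-Evans rats, 2 months old at the start, that drank water (Sham) or fluoxetine at 18 mg/kg per day (FT) for 6 weeks, and profiled single cells and nuclei with 10x Genomics 3′ chemistry. Each replicate pooled tissue of several animals, and cells came from 13 droplet reactions in 4 FT and 5 Sham replicates. The replicates held 11, 13, 12 and 13 Oligodend2 cells in FT 1, 2, 4 and 5 and 12, 18, 9, 4 and 3 in Sham 1 to 5. Sham 4 and Sham 5, with under 5 cells, stayed out of the sums and of every test within Oligodend2, and entered only the test of the share of cells. Elsewhere their values are given only where they matter.

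Oligodendrocytes wrap axons in myelin, a lipid-rich sheath that needs large amounts of cholesterol and of a few proteins such as Mbp. Immediate early genes encode transcription factors and feedback inhibitors that cells switch on within minutes of a stimulus, without making new protein first, and they are known to answer to neuronal activity, growth factors and tissue handling. Heat shock genes encode chaperones that hold and refold damaged proteins, and heat shock factor drives many of them.

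The oligodendrocyte name held against the markers. All 10 oligodendrocyte markers (among them Mbp, Mobp, Mog, Mag, Cnp, Cldn11, Mal, Ermn and Opalin) were higher in Oligodend2 than in all other dorDG cells in each of the 7 replicates, and together took 4.87% ± 0.814 of UMIs (unique molecular identifiers, 1 per captured RNA molecule; SD, n = 7 replicates) against 1.36% ± 0.552 in the other cells. Markers of other types were low in Oligodend2: microglia markers took 0.0639% of UMIs (0.0266% to 0.0972% over replicates), neuron markers 0.0582% (0.0312% to 0.145%), astrocyte markers 0.0529% and endothelial markers 0.0168%. Oligodend2 cells had a median of 7050 UMIs (851 to 16408) and 2761 genes, against 2499 UMIs in the 171 cells of the other oligodendrocyte type, Oligodend1. No Oligodend2 cell shared its barcode with another dorDG reaction. The cells were clustered on all genes, so every comparison of Oligodend2 with other types is a description with no test.

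The reactions differed in whether they held Oligodend2 at all. In 4 replicates the labels give 2 sample names, each taken as 1 reaction. First and second follow the order of the numbers in those names, as the labels state no order. Of the first reactions, 53 of 396 cells were Oligodend2 (13.4%, exact 95% interval 10.2% to 17.1%, counting error only), against 1 of 312 cells of the second (0.321%, 0.00811% to 1.77%). Oligodend1 went the other way, with 10.6% and 17.6%. The difference between paired reactions averaged 14.8 percentage points ± 7.97 (SD, n = 4 pairs), and the first reaction was higher in every pair. Cells with under 2% of their UMIs in ribosomal protein genes made up 8.08% of the first reactions and 91.3% of the second. Of Oligodend2, 12 of 95 cells were of that kind, against 87 of 171 Oligodend1 cells. The study's methods describe whole-cell and nucleus suspensions of the same tissue without saying which reaction held which, so the suspension and the reaction cannot be told apart. For that reason the list shares are also given against cells with 2% or more ribosomal UMIs (ribosome-rich cells).

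**Figure D1:**
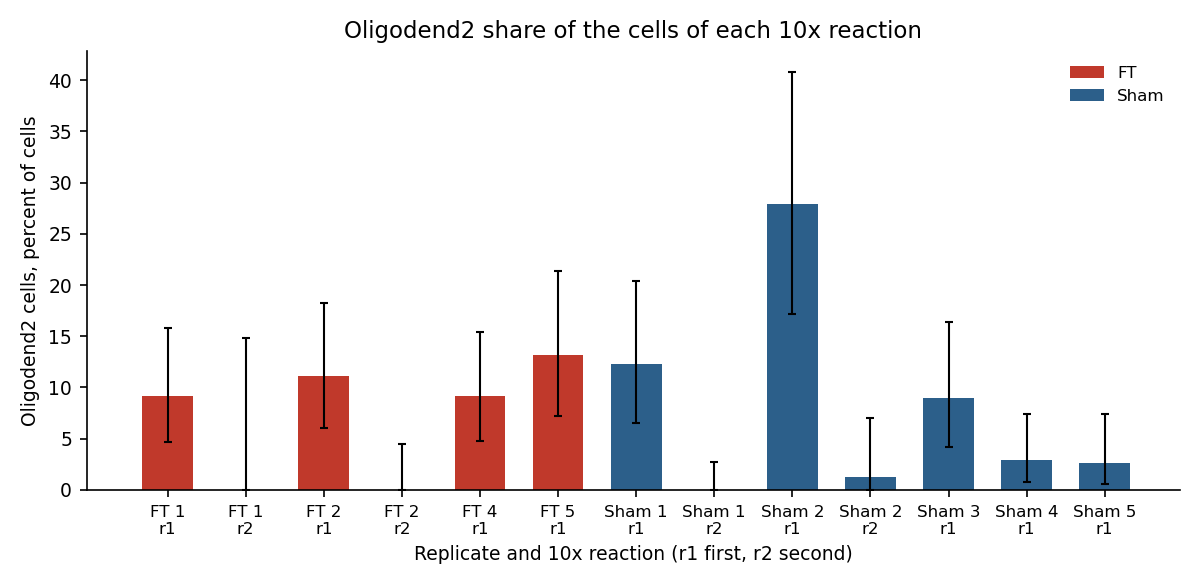
Oligodend2 cells as a percent of all dorDG cells of each 10x reaction; bars are single reactions, FT in red and Sham in blue, with exact 95% binomial intervals. The second reactions (r2) of FT 1, FT 2, Sham 1 and Sham 2 held 1 Oligodend2 cell among 312 cells, and FT 4, FT 5 and Sham 3 to 5 had a single reaction.

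Immediate early genes took a larger share of UMIs in Oligodend2 than in any other dorDG type, with a mean of 1.39% ± 0.546 (SD, n = 7). The share was 1.19%, 2.36%, 1.13% and 1.93% in FT 1, 2, 4 and 5 and 0.855%, 1.12% and 1.10% in Sham 1, 2 and 3. In the same replicates it was 0.210% ± 0.142 in Oligodend1 and 0.490% ± 0.157 in all other dorDG cells, and Oligodend2 was higher in each of them, by 2.98- to 26.6-fold over Oligodend1 and by 1.62- to 4.98-fold over the others. The next types in order were the cells annotated as Mossy (1.23% ± 0.232), Endothelial (0.908% ± 0.245) and Microglia2 (0.744% ± 0.285), and the gap between Oligodend2 and Mossy lay within the SD of either. Set against ribosome-rich cells alone, Oligodend2 still stood above Oligodend1 in 7 of 7 replicates (3.03- to 29.3-fold), and above the other cells by 1.10- to 3.75-fold.

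The list's transcription factors were unevenly represented. Fos, a subunit of the AP-1 factor, had a level of 42.4, 78.2, 44.5 and 67.8 UMIs per 10000 in the FT replicates and 38.1, 38.2 and 34.8 in the Sham replicates of Oligodend2, against 1.77 to 21.9 in Oligodend1. Egr1, a zinc finger factor, had levels of 15.6, 23.2, 11.4 and 18.2 in FT and 7.28, 8.70 and 9.34 in Sham, against 0 to 2.45 in Oligodend1. No Oligodend2 replicate overlapped an Oligodend1 replicate in either gene. Atf3, a factor of the stress response, averaged 10.5 ± 5.94 UMIs per 10000 in Oligodend2, 0.569 ± 0.247 in Oligodend1 and 2.23 ± 0.869 in the other cells. The level of Egr2 was 3.31 ± 1.56 in Oligodend2 against 0.0963 ± 0.0991 in Oligodend1. Jun, the usual partner of Fos, stood at 3.50 ± 1.34 against 0.245 ± 0.242, and Klf4 at 2.91 ± 1.78 against 0.0323 ± 0.0579. Fos, Egr1, Egr2, Jun and Atf3 were at their highest of all 12 types in Oligodend2, whereas Fosb (9.49 ± 4.24) was second to Mossy (13.7), and Klf4 too was higher in Mossy (8.23). Here and below, gene ranks over the types pool all cells of a type over all replicates. So do the gene levels of single types other than Oligodend1, whereas Oligodend2 means are over the tested replicates.

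Feedback and growth arrest genes of the list formed a second group. Btg2, an antiproliferative regulator, had levels of 8.0, 18.3, 16.4 and 16.6 UMIs per 10000 in FT and 2.29, 8.91 and 7.15 in Sham, and Gadd45b, a stress sensor, averaged 9.50 ± 6.14. Both were highest in Oligodend2, although Endothelial cells reached 10.6 for Btg2 and Mossy 8.02 for Gadd45b. Zfp36, which destabilizes mRNAs, and Dusp1, a phosphatase of MAP kinases, were higher than in Oligodend1 in 7 of 7 replicates, but at 3.85 ± 1.10 and 3.69 ± 0.841 they lay within the SD of all other cells (3.46 ± 1.42 and 3.49 ± 2.28). Nr4a1, an orphan nuclear receptor, averaged 5.06 ± 3.84 in Oligodend2, below 8.27 in Mossy.

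Some genes of the same list were near 0. Arc and Npas4, which neurons switch on with activity, had 0.0894 ± 0.124 and 0.0176 ± 0.0465 UMIs per 10000 in Oligodend2. Ier3 stood at 0.379 ± 0.201 against 3.31 ± 1.93 in the other cells and 15.3 in Microglia1. Cyr61, a secreted matrix protein, had 0.0349 in Oligodend2 against 4.10 in Mossy. Ier2, Junb and Socs3 had under 0.2 UMIs per 10000 in every type, so they say nothing of Oligodend2.

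Of the 42 genes of the immediate early list, 38 were in the table and 19 reached a mean of 0.5 UMIs per 10000 in Oligodend2 or Oligodend1. Of these 19, 15 were above Oligodend1 in all 7 replicates and 0 were below, where 3.78% of all 4103 genes so compared were above and 3.29% below. All 19 reached the mean in Oligodend2, as did 3447 of the 4103 genes. Genes high only in Oligodend2 could thus enter, so these counts and those of the later lists are descriptions and not support. Against all other cells 23 genes passed, of which 8 were above in every replicate and 2 below, beside 10.8% and 16.7% of 4739 genes. Against ribosome-rich cells alone 14 of 19 were above Oligodend1 (all genes 5.14% above and 4.58% below), and 4 of 23 were above and 3 below the other cells (10.8% and 16.0%). The genes above Oligodend1 were nearly as many against its ribosome-rich cells. Fewer stood above the ribosome-rich cells of the other types, against which the list as a whole had no single direction. In Oligodend2, 7 of the list's genes had their highest level of the 12 types, which was true of 6.01% of all genes.

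The promoters of Btg2 and Egr2 are shown because they hold elements through which early genes are classically driven. The sequences are RefSeq's, in assembly GRCr8, 300 bases around the annotated start, 5′ to 3′ on the gene's strand, in lower case with the matched element in capitals. For Btg2 (chr13:48087641-48087940, minus strand) the capitals mark the full cyclic AMP response element, and for Egr2 (chr20:21054392-21054691, minus strand) a serum response element.
Btg2: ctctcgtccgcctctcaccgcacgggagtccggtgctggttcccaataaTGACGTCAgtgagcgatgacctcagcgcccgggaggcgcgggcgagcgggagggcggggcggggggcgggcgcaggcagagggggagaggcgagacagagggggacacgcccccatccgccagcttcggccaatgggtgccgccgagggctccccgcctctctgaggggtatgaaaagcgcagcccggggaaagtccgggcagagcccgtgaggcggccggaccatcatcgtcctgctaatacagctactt
Egr2: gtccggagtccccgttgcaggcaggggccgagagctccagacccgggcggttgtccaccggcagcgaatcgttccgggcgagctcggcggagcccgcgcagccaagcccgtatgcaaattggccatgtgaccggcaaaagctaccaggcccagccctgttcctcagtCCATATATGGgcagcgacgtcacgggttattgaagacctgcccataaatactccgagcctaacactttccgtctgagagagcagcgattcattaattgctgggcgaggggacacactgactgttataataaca

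Of the 42 early genes on the list 31 had a promoter in the RefSeq table. The letters TGACGTCA, searched on both strands, were in 5 of these 31 (Btg2, Dusp1, Ier2, Jund and Maff) and in 1.83% of all 33469 promoters. The shorter TGACG, which lies within the full element, was in 18 of 31 and in 21.2% of all. The serum response element was in 6 of 31 (Dusp5, Egr1, Egr2, Klf6, Srf and Zfp36) and in 1.64% of all, and the AP-1 letters TGANTCA were in 0 of 31 and in 7.33% of all. A list gene counted if any of its promoters matched, whereas the share of all counts each promoter. The units therefore differ, here and for the heat shock element below. A match describes letters in a window and is not a measured binding site.

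**Figure D2:**
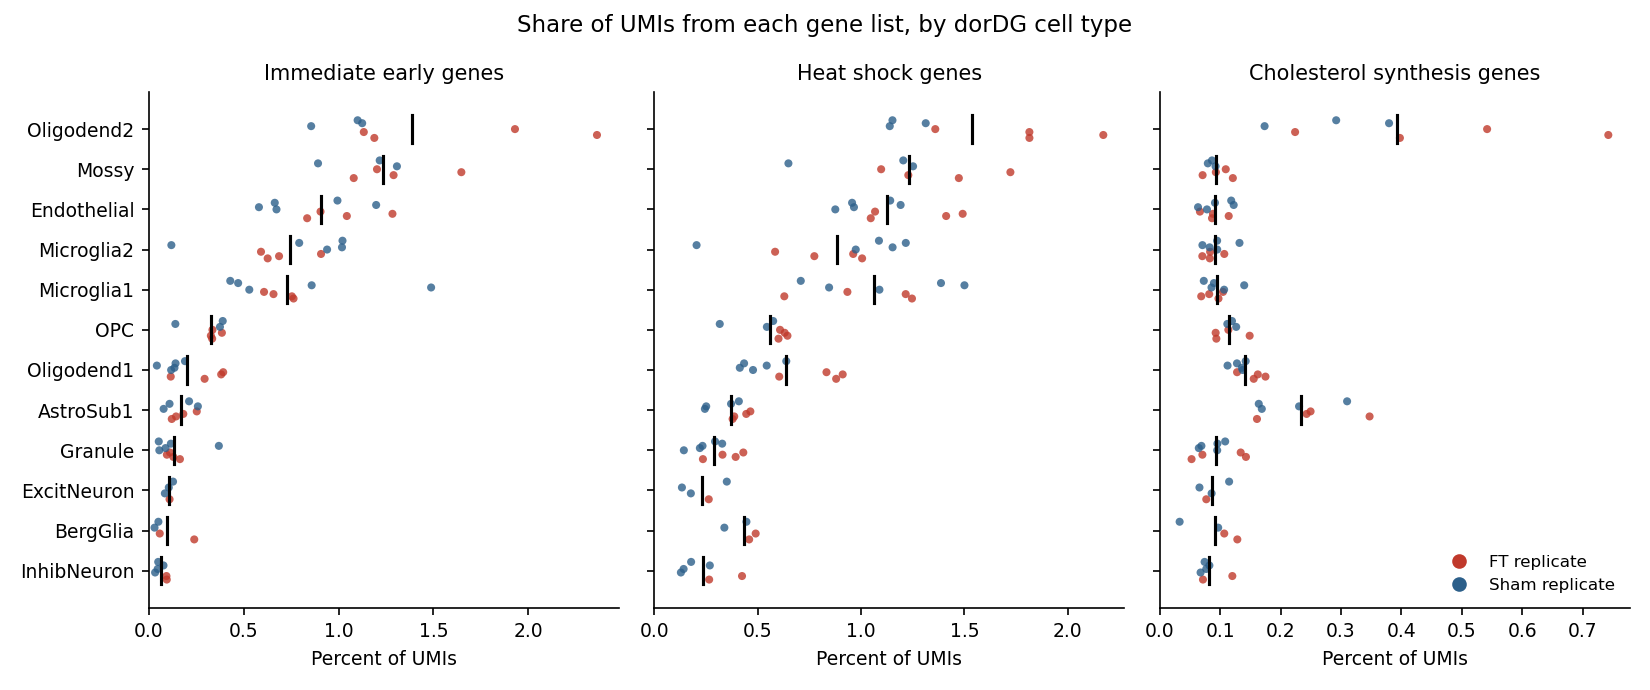
Percent of UMIs from the immediate early, heat shock and cholesterol synthesis lists in each dorDG type; each point is a replicate with 5 or more cells of the type (FT red, Sham blue), and the black bar is the mean over replicates. Oligodend2 has the highest mean in each panel, at 1.39%, 1.54% and 0.393%, but its immediate early and heat shock points overlap those of Mossy cells, and its cholesterol points those of AstroSub1.

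Heat shock genes made up 1.54% ± 0.397 of Oligodend2 UMIs (SD, n = 7), against 0.666% ± 0.205 in Oligodend1 and 0.680% ± 0.198 in all other cells. By replicate the share was 1.81%, 2.17%, 1.81% and 1.36% in FT 1, 2, 4 and 5 and 1.14%, 1.31% and 1.15% in Sham 1, 2 and 3. Oligodend2 was above Oligodend1 by 1.63- to 3.59-fold and above the others by 1.79- to 3.13-fold, in 7 of 7 replicates, and above the ribosome-rich cells of both by 1.49- to 2.97-fold and 1.07- to 2.42-fold. Mossy (1.23% ± 0.331), Endothelial (1.13% ± 0.208) and Microglia1 (1.06% ± 0.303) followed, and their ranges overlapped that of Oligodend2.

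Dnajb1, the co-chaperone that delivers clients to Hsp70, carried the widest gap. Its level was 18.9, 18.9, 26.4 and 22.5 UMIs per 10000 in FT and 9.87, 8.0 and 12.7 in Sham. In Oligodend1 it was 0.295 to 2.73, in all other cells 1.56 ± 1.02, and the next highest type, Mossy, reached 3.69. The small heat shock protein Cryab, which oligodendrocytes also make at rest, averaged 42.1 ± 23.8 against 17 ± 6.84 in Oligodend1 and 3.11 ± 1.16 in the others. The cytosolic Hsp90 chaperone Hsp90aa1 stood at 28.6 ± 3.37 against 14.4 ± 4.35 and 13.3 ± 3.08, with no overlap of the replicates of Oligodend2 and Oligodend1. The Hsp110 nucleotide exchange factor Hsph1 (5.92 ± 2.21) and the co-chaperone Dnajb4 (1.29 ± 0.217 against 0.501 ± 0.173) were also above Oligodend1 in every replicate.

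Other chaperones did not go along. Hsp90ab1 (17.8 ± 3.68) and Hspe1 (4.08 ± 2.62), the mitochondrial co-chaperonin, were above Oligodend1 in 6 and 5 of 7 replicates. Its partner chaperonin Hspd1 had 0.590 ± 0.295 in Oligodend2 against 0.713 ± 0.291 in Oligodend1. Hspb1 had 0.281 ± 0.265 against 13.7 in Endothelial cells, and Bag3 0.370 ± 0.230 against 2.61 in Microglia2. Hspa1a and Hspa1b, the inducible Hsp70 genes, had under 0.2 UMIs per 10000 in every type, and as near-identical copies they can lose reads to each other, so their low values carry no weight.

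Of 36 heat shock genes 35 were in the table. Against Oligodend1, 18 passed the level filter, 7 were above in all 7 replicates and 0 below (all genes 3.78% and 3.29%). Against all other cells the counts were 6 above and 3 below of 22, where 10.8% and 16.7% of all genes were, so the share below lay near that of all genes. Against ribosome-rich cells they were 6 of 18 above Oligodend1 (all genes 5.14%) and 5 above and 5 below the other cells of 23 (all genes 10.8% and 16.0%), so against the other types the list as a whole had no single direction there.

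Dnajb1 and Hsph1 both hold the heat shock element GAANNTTC, a palindrome to which heat shock factor binds, and their promoters are printed for that reason, with the element in capitals (GRCr8, Dnajb1 chr19:41431092-41431391, minus strand, 2 matches; Hsph1 chr12:10427118-10427417, plus strand, 1 match).
Dnajb1: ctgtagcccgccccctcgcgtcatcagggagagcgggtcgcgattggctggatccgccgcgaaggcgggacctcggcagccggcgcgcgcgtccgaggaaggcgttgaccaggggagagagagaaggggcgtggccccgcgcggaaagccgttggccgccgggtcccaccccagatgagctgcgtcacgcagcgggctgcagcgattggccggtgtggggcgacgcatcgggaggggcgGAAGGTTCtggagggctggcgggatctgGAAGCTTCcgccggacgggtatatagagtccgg
Hsph1: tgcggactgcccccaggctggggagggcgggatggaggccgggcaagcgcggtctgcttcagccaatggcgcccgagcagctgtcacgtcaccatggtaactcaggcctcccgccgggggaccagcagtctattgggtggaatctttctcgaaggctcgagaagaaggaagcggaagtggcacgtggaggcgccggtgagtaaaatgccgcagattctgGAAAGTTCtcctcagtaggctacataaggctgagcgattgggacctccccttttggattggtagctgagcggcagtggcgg

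The element was in 15 of the 29 heat shock genes with a promoter in the table (51.7%), in 2 of 31 immediate early genes and in 8.59% of all promoters. The 15 include Dnaja1, Hspe1, Hspd1, Hspb1 and Bag3, so genes with the element were found both among those above Oligodend1 in every replicate and among those that were not.

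**Figure D3:**
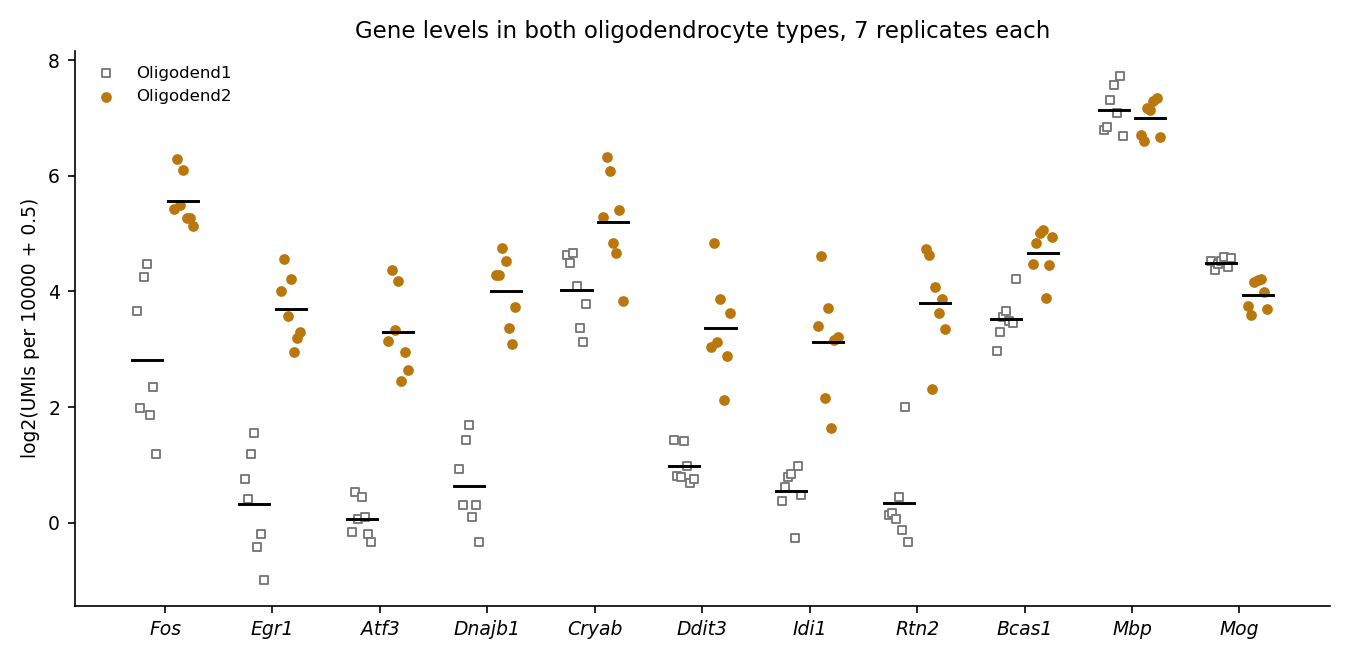
Level of 11 genes as log2(UMIs per 10000 + 0.5) in Oligodend1 (open squares) and Oligodend2 (filled circles); each point is 1 of 7 replicates and the black line is the mean. The Fos, Egr1, Atf3, Dnajb1, Ddit3, Idi1 and Rtn2 points of Oligodend2 lie above those of Oligodend1, whereas Cryab, Bcas1 and Mbp overlap and Mog lies lower in Oligodend2 (15.1 against 22.1 UMIs per 10000).

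Genes of the integrated stress response were listed together with endoplasmic reticulum (ER) chaperones. Ddit3, which encodes the factor CHOP, had levels of 7.75, 28.0, 8.26 and 14.1 UMIs per 10000 in FT and 3.85, 6.87 and 11.9 in Sham, against 1.10 to 2.19 in Oligodend1, and was at its highest of the 12 types. Atf4, which lies upstream of Ddit3, averaged 5.14 ± 2.79 against 1.17 ± 0.342, and Ppp1r15a, which ends the response by dephosphorylating eIF2α, 3.34 ± 2.02 against 0.611 ± 0.457. All 3 were above Oligodend1 in 7 of 7 replicates. The ER chaperone Hspa5 was at 2.08 ± 0.636, below the 3.24 ± 0.924 of all other cells, and Hsp90b1 at 2.00 ± 0.579 against 1.64 ± 0.497. The whole list took 0.353% ± 0.130 of UMIs in Oligodend2, 0.136% ± 0.0296 in Oligodend1 and 0.229% ± 0.0551 in all other cells. Oligodend2 ranked 5th of 12 types for it, and was above the ribosome-rich other cells in 3 of 7 replicates. Of 22 genes 12 passed the filter against Oligodend1, with 6 above in every replicate and 0 below (all genes 3.78% and 3.29%). Against all other cells 12 passed, with 2 above in every replicate and 0 below (all genes 10.8% and 16.7%).

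Cholesterol synthesis genes were the other group with its highest share in Oligodend2, at 0.393% ± 0.196 of UMIs against 0.144% ± 0.0216 in Oligodend1 and 0.104% ± 0.0138 in all other cells, and higher in 7 of 7 replicates against both, also where only ribosome-rich cells were set against it (by 1.38- to 4.25-fold and 1.52- to 5.27-fold). The next type was AstroSub1, at 0.234% ± 0.0691 (0.161% to 0.347%), which overlapped the 0.174% to 0.742% of the Oligodend2 replicates. Idi1, which makes the isoprene unit dimethylallyl diphosphate, had 10.1, 23.9, 3.97 and 12.6 UMIs per 10000 in FT and 2.60, 8.49 and 8.74 in Sham, against 0.329 to 1.47 in Oligodend1. The lowest replicate of Oligodend2 was above the highest of Oligodend1. The sterol oxidase Msmo1 (6.59 ± 4.52 against 2.12 ± 0.542), the synthase Hmgcs1 (3.76 ± 1.88 against 1.26 ± 0.562) and the squalene epoxidase Sqle (2.09 ± 1.03 against 0.471 ± 0.268) were above Oligodend1 in every replicate, as was Insig1, the sterol sensor (1.98 ± 0.808 against 0.332 ± 0.257). All 20 genes were in the table and 14 passed, of which 5 were above Oligodend1 in every replicate (all genes 3.78%) and 8 above the other cells (all genes 10.8%). In Oligodend2, 10 had their highest level of the 12 types (all genes 6.01%).

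Myelin genes overlapped between both oligodendrocyte types. They took 7.29% ± 1.01 of UMIs in Oligodend2 and 7.71% ± 1.22 in Oligodend1, and 1.77% ± 0.618 in all other cells, but 8.80% ± 0.661 in ribosome-rich Oligodend1, above Oligodend2 in 7 of 7 replicates. Mbp had 104, 96.8, 145 and 140 UMIs per 10000 in FT and 156, 163 and 102 in Sham, and 102 to 212 in Oligodend1. Of 27 genes that passed, 1 was above Oligodend1 in every replicate and 4 below (all genes 3.78% and 3.29%), among them Mog (15.1 ± 2.75 against 22.1 ± 1.26), Ermn (9.95 ± 1.72 against 15.6 ± 4.28) and Fa2h (1.29 ± 0.691 against 3.46 ± 1.03), and 7 were below ribosome-rich Oligodend1 (all genes 4.58%). The lineage factor Sox10 was lower too, at 1.46 ± 0.376 against 2.45 ± 0.488, in 7 of 7 replicates. Bcas1, which marks oligodendrocytes that are starting to myelinate, was higher, at 25.8 ± 6.80 against 11.4 ± 3.32, while Enpp6, another such marker, was at 1.82 ± 0.644 against 1.43 ± 0.663, and Olig1 at 2.41 ± 0.674 against 2.62 ± 0.770.

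Over all genes tested, the 10 with the largest mean log2 ratio of Oligodend2 to Oligodend1 were Rtn2, Dnajb1, Egr1, Atf3, Fosb, Btg2, Fos, Egr2, Idi1 and Klf4, each higher in 7 of 7 replicates. Their log2 ratios, on log2(UMIs per 10000 + 0.5), ran from 3.46 ± 1.04 for Rtn2 and 3.37 ± 0.50 for Dnajb1 to 2.54 ± 0.62 for Klf4. Rtn2, a reticulon that shapes ER membranes, is the only one of these outside the lists. Its level was 26.2, 24.3, 4.45 and 16.4 UMIs per 10000 in FT and 11.8, 14 and 9.73 in Sham, against 0.295 to 3.49 in Oligodend1 and 3.88 in the next highest type, OPC. Against ribosome-rich Oligodend1 cells the same 10 ratios were between 2.48 and 3.36.

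The programs varied widely from cell to cell. The immediate early share of single Oligodend2 cells had a median of 1.23% (0% to 4.06%, middle 50% of cells 0.671% to 1.81%), and the heat shock share 1.34% (0.0961% to 4.36%). Both shares were ordered alike over the 95 cells (Spearman correlation 0.592). The early share also followed the integrated stress response share (0.667) and, less, the cholesterol share (0.379). It was unrelated to UMIs per cell (−0.00132) but moved with the ribosomal share (0.423), as did the heat shock share (0.539). These cells share replicates and reactions, and shares of the same total are not independent, so the coefficients are descriptions.

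Equal depth left the contrast with Oligodend1 in place, but by median not the lead over Mossy cells in the early share. With every cell thinned to 1000 UMIs, which left out 4 Oligodend2 and 27 Oligodend1 cells, the median early share was 1.10% in Oligodend2 and 0.100% in Oligodend1, and 4 of 144 Oligodend1 cells reached the Oligodend2 median. For heat shock genes 10 of 144 did. Thinned Mossy cells had a median early share of 1.15%, above that of Oligodend2, and a mean of 1.18% against 1.42%. Of 68 such cells, 36 reached the Oligodend2 median. The median heat shock share was 0.9% in thinned Mossy cells and 1.3% in Oligodend2. Fos UMIs were found in 93.7% of Oligodend2 cells (86.8% after thinning) against 42.1% (29.9%) of Oligodend1. For Egr1 the shares were 86.3% (59.3%) against 14.6% (4.17%), and for Dnajb1 77.9% (50.5%) against 19.9% (4.17%). Free RNA can differ between reactions, so the shares were also compared within the first reactions of the 4 replicates that had 2. There the thinned Oligodend2 cells held Fos in 94.1%, Egr1 in 56.9% and Dnajb1 in 39.2% (median 7542 UMIs before thinning). In thinned Oligodend1 cells of those reactions the shares were 42.9%, 9.52% and 9.52% (median 5621.5 UMIs). In AstroSub1, with 19 thinned cells (median 3168 UMIs), they were 26.3%, 5.26% and 5.26% (61.9%, 19.0% and 19.0% before thinning). The highest thinned shares of any other type there were 72.7% for Fos, 33.3% for Egr1 and 27.3% for Dnajb1, each reached by Mossy cells and all below Oligodend2. An Mbp UMI was found in 94.7% of the thinned AstroSub1 cells, so its presence says nothing of cell type. No type is known to lack the early genes, so these shares do not measure free RNA alone.

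**Figure D4:**
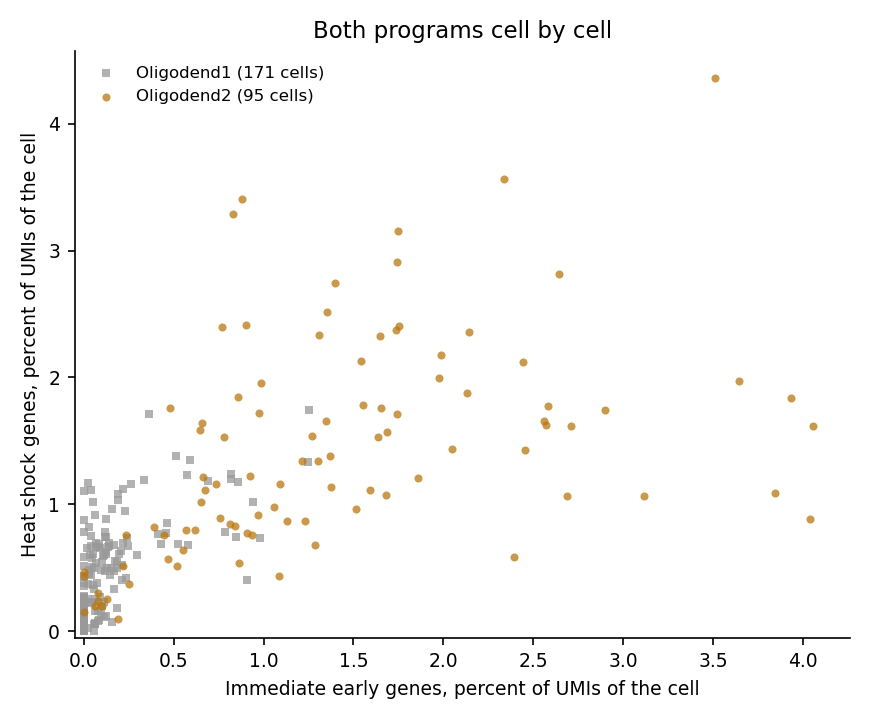
Immediate early share (x axis) against heat shock share (y axis) of the UMIs of single cells, for 95 Oligodend2 (brown circles) and 171 Oligodend1 cells (grey squares). Oligodend2 cells spread from 0% to 4.06% on the x axis and Oligodend1 cells from 0% to 1.25%.

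The share of Oligodend2 among dorDG cells answers whether the subtype was more frequent after fluoxetine. It was 7.69%, 6.60%, 9.16% and 13.1% in FT 1, 2, 4 and 5 and 5.22%, 13.0%, 9.0%, 2.96% and 2.59% in Sham 1 to 5, and the groups overlapped. The means were 9.15% ± 2.86 (SD, n = 4) and 6.56% ± 4.43 (n = 5), and the difference of 2.58 percentage points did not pass a two-sided exact permutation test (p = 0.317, where 0.0159 is the smallest possible). It changed sign among ribosome-rich cells (−0.282 points, exact p = 1) and in first reactions only (−0.290 points, exact p = 0.984). The replicate medians of UMIs per Oligodend2 cell averaged 6667 ± 1044 under FT and 8001 ± 641 under Sham, a difference that did not pass the exact permutation test either (p = 0.171, n = 4 and 3, smallest possible 0.0571).

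Fluoxetine was then compared with Sham within Oligodend2, on UMIs summed per replicate (4 FT and 3 Sham replicates), with edgeR's quasi-likelihood test over 3447 genes. At a Benjamini-Hochberg adjusted p of 0.2 and an absolute log2 fold-change of 0.32, 1 gene was called (0.0290%, Plekhg1), and DESeq2 called 2 (Plekhg1 and Dnajb1). Unadjusted p was under 0.05 for 49 genes higher in FT (1.42%) and 55 lower (1.60%), and the replicates of the groups did not overlap for 86 genes higher (2.49%) and 58 lower (1.68%). By edgeR no gene of any stress, early, myelin or cholesterol list was called.

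The called gene was Plekhg1, a guanine nucleotide exchange factor for small GTPases. Its level was 0.123, 0.241, 0.477 and 0.203 UMIs per 10000 in FT 1, 2, 4 and 5, which is 8 UMIs in all (1, 2, 3 and 2), and 1.97, 2.60 and 1.99 in Sham 1, 2 and 3 (19, 37 and 10 UMIs). FT was lower in every replicate, with a log2 fold-change of −3.10 (SE 0.50, edgeR adjusted p = 0.0254). The small replicates Sham 4 and Sham 5 had 0.809 and 0, on 2 and 0 UMIs. The call was lost without FT 5 (adjusted p = 0.295) and without Sham 2 (adjusted p = 0.326), both by the same edgeR test. No gene was called either by edgeR with a block for the replicate number (126 genes at an unadjusted p under 0.05; adjusted p of Plekhg1 0.956) or by limma with a pseudocount of 0.01 (84 genes). Over 20 alternative fits its adjusted p ran from 0.000349 to 0.956, and FT was lower in each.

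Dnajb1 had no overlap between the groups (18.9 to 26.4 UMIs per 10000 in FT and 8.0 to 12.7 in Sham), with a log2 fold-change of 1.10 (SE 0.25, unadjusted p = 0.000377, edgeR adjusted p = 0.507). Sham 4 had 12.1 and Sham 5, with 3 cells, 39.0, above every FT replicate. With these 2 replicates included the log2 fold-change was 0.67 (edgeR adjusted p = 0.999). The gene was called by DESeq2 (adjusted p = 0.155), without Sham 3 (edgeR adjusted p = 0.0469) and among ribosome-rich cells (edgeR adjusted p = 0.0764). Sham 3, in which 5 of 9 Oligodend2 cells were low in ribosomal UMIs, fell under 5 cells there, so that fit also rests on 2 Sham replicates. The adjusted p of the 20 alternatives lay between 0.0469 and 1.0. Egr1 likewise did not overlap (11.4 to 23.2 in FT, 7.28 to 9.34 in Sham, log2 fold-change 1.03, edgeR adjusted p = 0.999), while Sham 4 and Sham 5 had 16.2 and 21.9, inside the FT range. In the same ribosome-rich fit Egr1 was called too (edgeR adjusted p = 0.190, the lowest of its alternatives, which reached 1.0).

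The early genes leaned the same way without passing the test. Among the 38 that the table holds, 19 were tested, 17 had a log2 fold-change above 0, and their median was 0.51 where that of all genes was −0.01. Unadjusted p was under 0.05 for 6 of them with FT higher (Egr1, Atf3, Btg2, Nr4a1, Fos and Csrnp1) and for 1 with FT lower (Gadd45g, log2 fold-change −1.93), where the shares over all genes were 1.42% and 1.60%. Without FT 2 the median was 0.29, with 13 of 17 genes above 0 and 3 at an unadjusted p under 0.05 with FT higher, and without Sham 3 it was 0.82, with 7 such genes. With Sham 4 and Sham 5 included, 3 genes had FT higher at that p and the median was 0.58. Atf3 had levels of 8.37, 20.2, 9.53 and 17.5 in FT and 4.99, 7.22 and 5.76 in Sham (log2 fold-change 1.21). For Fos the log2 fold-change was 0.65, for Btg2 1.28, for Nr4a1 1.22 and for Csrnp1 1.13. The small Sham 5 was above every FT replicate in Btg2 (40.3), Nr4a1 (13.0) and Csrnp1 (8.20). Sham 4 was below every FT replicate in these genes (6.07, 1.62 and 1.21). The 4 FT replicates averaged 1.65% ± 0.596 of UMIs in the whole list and the 3 Sham replicates 1.03% ± 0.149, with FT 1 and FT 4 close to the highest Sham replicate. In the small Sham 5 it was 2.41%, above all FT replicates. These genes were chosen with earlier results of these data known, so the count is a description of this list.

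The other lists had no gene past the test, and their counts at an unadjusted p under 0.05 changed with single replicates. Of 17 heat shock genes tested 10 were above 0, with a median log2 fold-change of 0.15, and Dnajb1 and Cryab (0.97) were among 3 with an unadjusted p under 0.05. Leaving out 1 replicate gave medians of 0.03 (without FT 1) to 0.23 (without FT 5), and 1 such gene without Sham 1. The heat shock share of UMIs was 1.79% ± 0.333 in FT and 1.20% ± 0.0969 in Sham, and without Dnajb1 and the list's gene with the most UMIs (Cryab) the FT minus Sham difference was 0.206 points in place of 0.589. In the small replicates left out, single cells held 0.777% to 1.96% in Sham 4 and 0.152% to 1.84% in Sham 5. These ranges over cells are not replicate shares and do not place either replicate beside the group means. Cryab had 33.2 UMIs per 10000 in Sham 4 and 2.05 in Sham 5, against 28.1 to 79.9 in FT. Hsp90aa1, the next in UMIs, had 34.4 and 41.0, above the 25.3 to 33.2 of FT. Of 13 cholesterol genes 11 were above 0 (median 0.59), and Lss, Msmo1 (1.14), Fdps (0.84) and Sqle (0.91) had an unadjusted p under 0.05. These 4 fell to 1 without FT 2 and without Sham 1 and to 2 without FT 5, and the median ran from 0.43 without FT 2 to 1.07 without Sham 2. Lss, lanosterol synthase, had 40 UMIs in FT and 4 in Sham (log2 fold-change 2.99, edgeR adjusted p = 0.507). Of 12 integrated stress response genes, Ddit3 (1.0), Atf4 (0.99) and Ppp1r15a (1.09) had an unadjusted p under 0.05, but 0 did without FT 2 or without Sham 1. Myelin genes had a median of 0.12 over 26 genes, which turned to −0.11 without Sham 3, with 9 of 26 above 0 and 5 lower in FT at an unadjusted p under 0.05 (0 with all replicates). It was 0.02 without FT 5, 0.29 without Sham 1 and −0.03 among ribosome-rich cells, and −0.17 under the replicate block (4 lower). As reported, of the 2 with an unadjusted p under 0.05 one was Cryab and the other Qdpr, dihydropteridine reductase (0.71, 18.4 to 29.4 UMIs per 10000 in FT and 10.5 to 17.2 in Sham, with 36.8 in the small Sham 4).

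Outside the lists and apart from Plekhg1, the genes with the largest log2 fold-changes among those with an unadjusted p under 0.05 and no overlap were Prmt2 (1.67), Fbxo2 (1.77), Tuba4a (1.47) and Por (1.47) on the higher side, and Grk4 (−1.78), Phip (−1.57), Impact (−1.53) and Zhx1 (−1.49) on the lower side, each with an edgeR adjusted p of 0.999. Prmt2, an arginine methyltransferase, had 3.81, 6.15, 1.59 and 4.26 UMIs per 10000 in FT and 1.14, 1.47 and 0.993 in Sham. The levels of the others were at or below 2.19 in every one of the 7 replicates.

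The FT minus Sham difference of the early share was 0.627 points in Oligodend2, 0.198 in Oligodend1 and 0.143 in all other cells, and that of the heat shock share was 0.589, 0.329 and 0.310. The other cells also differed in make-up between the groups: their ribosomal share of UMIs was 4.93% in FT and 2.84% in Sham, and their neuron markers 0.127% and 0.269%. In ribosome-rich other cells the early and heat shock differences were −0.178 and −0.00811 points, and in ribosome-rich Oligodend1 cells 0.157 and 0.164. In Oligodend2 the ribosomal share was 4.56% ± 0.451 in FT and 4.10% ± 0.495 in Sham, and among its ribosome-rich cells the early and heat shock differences were 0.714 and 0.650 points (4 FT and 2 Sham replicates). Whether Oligodend2 responded differently from the other types was not tested.

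**Figure D5:**
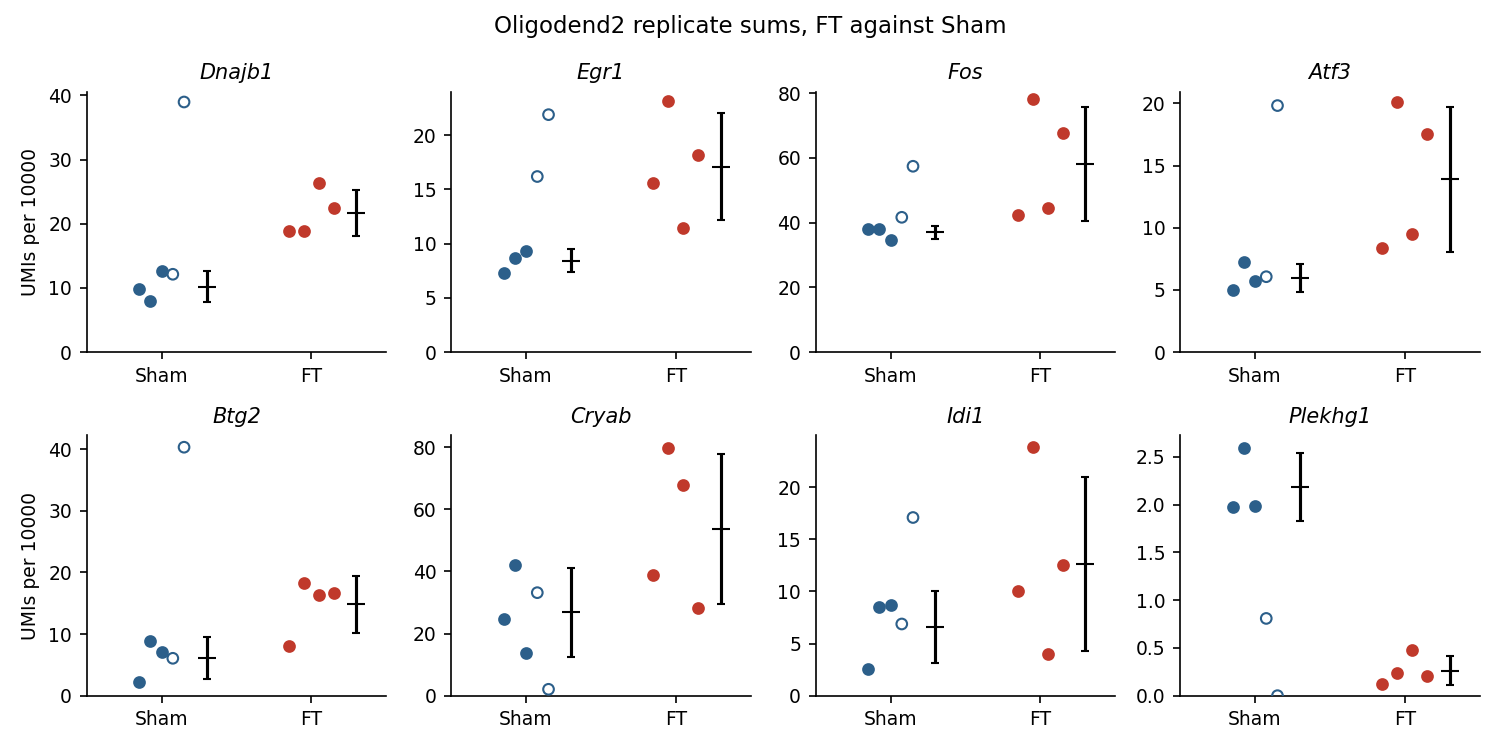
Level (UMIs per 10000, linear axes from 0) of 8 genes in the Oligodend2 sum of each replicate, Sham in blue and FT in red; filled points are the 7 replicates tested, open points are Sham 4 and Sham 5 with under 5 cells, and the black mark is the mean ± SD of the filled points. Filled points of the groups do not overlap for Dnajb1, Egr1, Fos, Atf3 and Plekhg1, and an open Sham point lies within or above the FT points for Dnajb1, Egr1, Fos and Atf3.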

How the data were processed

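For dorDG the authors deposited a matrix of unnormalized UMI counts (19127 genes in rows, cells in columns), made with Cell Ranger and annotated with Seurat 3, and a table of other per-cell information that names 12 cell types. The submitters' processing notes name the build rn5. Counts came as the authors left them: 9 Oligodend2 cells lie outside the limits of the study's methods (1000 genes, 20000 UMIs, 25% mitochondrial UMIs). No doublet caller was run here, and how doublets were treated before deposit is not known from the tables. Replicates came from the labels, with all reactions of a replicate number summed. Replicate sums held 50342 to 142565 UMIs and differed pairwise beyond counting error. The labels do not say whether pools shared animals, but the paper's numbers of animals per replicate and per group match separate animals in each pool. The p-values measure the spread between such pools.

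Levels are UMIs per 10000. Being 3′ tag counts, they do not scale with transcript length. Log2 ratios used a pseudocount of 0.5, and shares divided a list's UMIs by all UMIs. FT was tested against Sham on sums of replicates with 5 or more cells with edgeR 4.0.16 (TMM, glmQLFit and glmQLFTest, genes with a mean of 0.5 UMIs per 10000 or more), the adjusted p being Benjamini-Hochberg's. Alternatives used DESeq2 1.42.0 and limma 3.58.1 in R 4.3.3. The edgeR fit was also run on simulated counts with known changes, made with the common dispersion of the real fit. It called 11 of 50 genes with a true absolute log2 fold-change of 1 and 42 of 50 at 2. Of 3247 unchanged genes it called 30. Every simulated gene had the same dispersion, so these rates do not cover genes that vary more between replicates. Promoters came from RefSeq (GRCr8), matched by symbol.

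Genes named were drawn from the markers Mbp, Egr1 and Dnajb1, the 8 genes with the most UMIs in each stress list, the 10 largest ratios to Oligodend1, called genes, the 5 highest and 5 lowest fold-changes with an unadjusted p under 0.05 and no overlap (unnamed loci left out), and list members with an unadjusted p under 0.05. Further list members (Jun, the low genes, Dnajb4, Hspd1, the cholesterol, myelin and lineage genes) were named after their values were seen. Alternatives changed the tool, scaling, filters, cells, replicates and list members, and their effect is given at the end. Ventral cells were only counted and no type names were read for them, although the paper shows its annotated cell types in the ventral region too. Some list members are not reported here by name. The members and lists were chosen with earlier results of these data known.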

Additional observations from a re-analysis of the deposited data

Results flagged for a closer look

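Over the FT or Sham replicates of the named genes and shares, 37 groups of 4 or 5 values were examined for a sample far from the others, and 2 had one; chance alone gives about 1 in 20 groups. Por, cytochrome P450 reductase, had 1.09 UMIs per 10000 in the Oligodend2 cells of FT 2, where the other FT replicates had 0.609 to 0.636. Ttr, the thyroid hormone carrier that choroid plexus makes, had 21.5 UMIs per 10000 in FT 4, where the other FT replicates had 0 to 1.12 and the 3 Sham replicates tested had 0, so its log2 fold-change of 8.57 rests on 1 replicate. Sham 4, with 4 cells, had 4.05. The part of choroid plexus RNA in that replicate was not tested.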

How the results depend on the processing

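With 1 gene called as reported, DESeq2 called 2, no filter on low counts 9, at least 1 cell per replicate 2, at least 10 cells 5, ribosome-rich cells only 6, and limma with a pseudocount of 0.01 called 0 (84 genes at an unadjusted p under 0.05). Other scaling, a filter at 1 UMI per 10000, the study's cell limits, first reactions only and limma with 0.5 each called 1. The causes were not tested. Leaving out 1 replicate gave 0 to 5 genes (0 without FT 5 and without Sham 2, 5 without Sham 3). A replicate block left 0 genes called by edgeR (126 at an unadjusted p under 0.05), and with the block and 1 or more cells per replicate, an alternative chosen after seeing the data, 4. Samples of the same number correlated at 0.164 and 0.113, but the tested replicates share only 2 numbers and neither shared animals nor parallel handling is stated for the same-numbered single-cell pools (the methods describe parallel handling under the frozen tissue), so the number was not taken as a pairing. Over all alternatives the 583 fold-changes of 31 named genes kept their sign, and 566 kept their side of the threshold. These genes were picked by a call or an unadjusted p under 0.05 in the reported edgeR fit, and all but Plekhg1 were uncalled there. The kept signs and sides were therefore largely fixed by the choice and are no support for the genes.

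The FT minus Sham share of cells turned to −0.282 points in ribosome-rich cells and −0.290 in first reactions, and leaving out 1 replicate gave 1.26 to 4.20. The heat shock list without Dnajb1 and Cryab gave 0.206 points for FT minus Sham (0.589 as reported) and 0.315 for Oligodend2 minus other cells (0.858). Leaving out 1 replicate gave early differences of 0.391 to 0.801 (FT minus Sham) and 0.730 to 0.973 (minus other cells), heat shock differences of 0.462 to 0.733 and 0.755 to 0.901, −1699 to −828 UMIs and −582 to −277 genes per cell, and 10.8 to 16.6 points between reactions (left out after seeing the data, as was the comparison with ribosome-rich Oligodend1). Sums of 9 to 18 cells per replicate limit the precision of every fold-change.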

Other observations

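Oxidative and metal stress genes took 1.20% ± 0.187 of Oligodend2 UMIs (SD, n = 7), 0.982% ± 0.212 of Oligodend1 and 0.752% ± 0.247 of all other cells. Fth1, the ferritin heavy chain that stores iron, had 91.9 ± 17.8 UMIs per 10000 in Oligodend2, the highest of the 12 types, against 73.0 ± 18.5 in Oligodend1, and Oligodend2 was above Oligodend1 in 5 of 7 replicates. The peroxidase Prdx1 had 14 ± 4.34 UMIs per 10000 in Oligodend2, 15.2 ± 4.86 in Oligodend1 and 5.97 ± 1.96 in all other cells. The list as a whole had no single direction: of 13 genes that passed against all other cells 2 were above and 2 below in every replicate (all genes 10.8% and 16.7%), and BergGlia had a higher share (1.5% ± 0.478). Metallothionein Mt2A was at 9.93 UMIs per 10000 in Sham 3 and at 0 to 1.22 in the other 6 replicates tested.

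Glucocorticoid response genes took 0.183% ± 0.0325 of UMIs in Oligodend2, a geometric mean of 2.08-fold the share in Oligodend1 (0.0892% ± 0.0216, higher in 7 of 7 replicates), and 0.185% ± 0.0625 in all other cells. In FT against Sham 7 of its 16 genes were tested, and Per1, a clock gene, had an unadjusted p under 0.05, with 0.615 to 1.12 UMIs per 10000 in FT and 1.19 to 3.23 in Sham (log2 fold-change −1.10, edgeR adjusted p = 0.999). Sham 4 had 0 and Sham 5 1.37.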
